A study of Mus musculus with 8 samples.

Results

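The 44 genes described here belong to the germline, meiosis and cancer-testis program of the mouse. They were chosen by name from a fixed list of symbols, with earlier results of these data known. All 44 symbols were found among the 23284 gene entries of the authors' deposited table. Expression was measured by RNA sequencing in mouse ES (embryonic stem) cells of 2 lines, each a single clone: clone 6, with a Ctcfl transgene that doxycycline induces, and clone 7, which lacks the transgene. Ctcfl, also known as BORIS, is a germline relative of the insulator protein Ctcf. The 4 groups were the transgenic line with doxycycline, the transgenic line without it, the non-transgenic line with doxycycline and the non-transgenic line without it. Cells of every group were kept on embryonic fibroblast feeders and then grown for 48 h off the feeders, with doxycycline at 2 µg/ml or none, and the labels give the strain of both lines as mixed. Each group holds 2 libraries, 1 from each of 2 experiments, and the labels call them biological replicates. Each line is 1 clone, so a difference between the lines cannot be told apart from a difference between clones and is not assigned to the transgene.

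Germline genes act in primordial germ cells and in the meiotic and post-meiotic cells of the gonads, where they pair and recombine chromosomes, silence transposons through piRNAs and package the sperm genome. In somatic cells many of them are kept silent by DNA methylation of their promoters and by repressor complexes such as the Polycomb complex PRC1.6, which holds the E-box binding pair Mga and Max and the factor E2f6. Mouse ES cells are known to transcribe part of this program, and the genes that are found in testis and again in tumours are called cancer-testis genes.

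Levels are given as FPKM, a measure of RNA abundance that is scaled to transcript length and to the mapped fragments. The authors deposited 1 FPKM value per gene and group, which combines both libraries, so a level carries no SD, the depth per library is unknown, and the error of a difference comes from the authors' test statistic. The p and q are the table's own, while log2 ratios and standard errors (SE) were computed here, the SE as the log2 ratio over the statistic. These SEs do not match the deposited p: over the 93 tests of the germline genes in the 4 comparisons, the SE from the statistic was 1.48 times (median) that implied by p under a normal test, and larger in 84. Ctcfl itself was at 0.995 FPKM in the transgenic line with doxycycline, 0.403 FPKM without it, and 0.498 and 0.513 FPKM in the non-transgenic line with and without it. The log2 difference of Ctcfl in the transgenic line was 1.30 and was not called (p = 0.0062, q = 0.296 in the authors' deposited table), and how much of the transgene this value counts is unknown. All 10 ES cell markers stood at 1 FPKM or more in at least 1 group, with summed levels of 4187 to 4486 FPKM over the groups. Of these 10, 3 were called between the lines both without and with doxycycline: Zfp42 (88.3, 58.8, 20.1 and 18.9 FPKM in the group order above) and Nanog (128, 97.6, 68.5 and 57.9 FPKM) higher in the transgenic line and Sox2 (121, 105, 196 and 168 FPKM) lower. Over all tested genes 1.37% were called between the lines without doxycycline and 1.52% with it. The part of these marker differences in the line differences below was not tested. Of 10 fibroblast markers 9 reached 1 FPKM in at least 1 group. The 10 summed to 227, 225, 171 and 175 FPKM, or to 87.2, 93.0, 84.1 and 82.1 FPKM without the collagen gene Col1a1. The 9 primordial germ cell markers, which include Ddx4 and Dazl, summed to 107, 86.2, 80.4 and 72.5 FPKM. Markers of Sertoli and Leydig cells summed to 3.60 to 7.50 FPKM, with 4 of 8 at 1 FPKM or more, and 0 of 6 markers of the 2-cell-like state reached 1 FPKM. Among 6 markers of sex chromosome state 5 reached it. Of the 6 only Kdm5d was called, higher in the transgenic line both without and with doxycycline. RNA came from whole cultures, so fewer cells of a type and less RNA per cell cannot be told apart.

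Of the 44 genes 22 reached 1 FPKM in at least 1 group, and 19 did so in all 4 groups. This share of 50% lies beside 54.0% over all gene entries, of which 17.6% were listed at 0 in every group. Levels spanned a wide range: 7 genes reached 10 FPKM and 10 genes reached 5 FPKM, while 4 genes (Magea8, Mageb18, Prm2 and Tnp1) were listed at 0 in all groups and 4 more in some. By role, all 6 RNA-binding, helicase and related germ cell genes reached 1 FPKM, as did 5 of 7 genes of the meiotic chromosome axis, synapsis and recombination, 4 of 6 transcription and chromatin regulators and 3 of 6 piRNA pathway genes. Of the 10 X-linked cancer-testis and reproductive genes 2 reached it, and so did 2 of the 9 spermatogenic metabolism, sperm and tubulin genes. Sycp1 and Tex101 were kept through the transgenic line alone (Tex101 through its group without doxycycline only), and Tex14 was under 1 FPKM in 1 of the 4 groups, so the 22 genes are partly chosen by differences between groups.

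**Figure D1:**
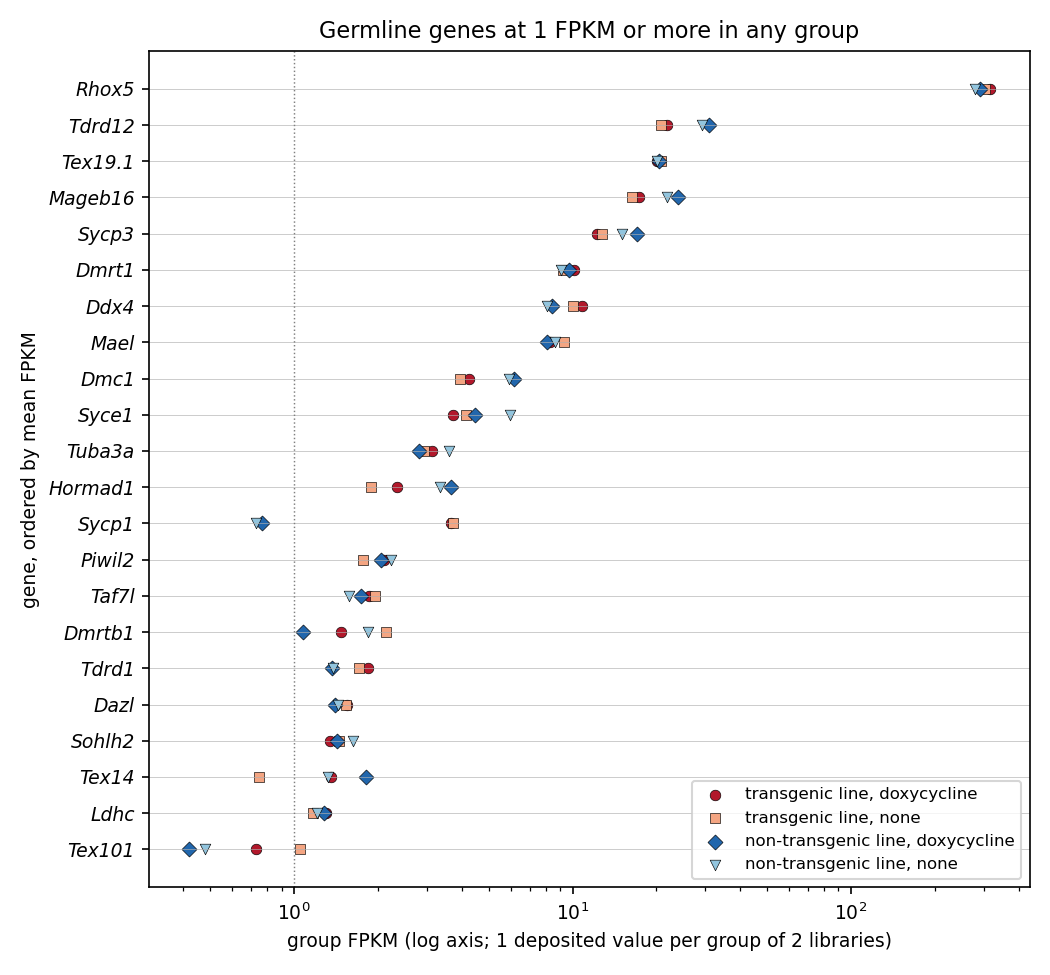
Deposited FPKM (log axis) of the 22 germline genes at 1 FPKM or more in any group, with 1 point per group of 2 libraries and no error bar, since 1 value per group was deposited. Rhox5 stands apart at 280 to 315 FPKM, and Sycp1 is the gene whose groups part most by line, at 3.67 and 3.73 FPKM in clone 6 and 0.764 and 0.727 FPKM in clone 7.

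Promoter windows of RefSeq (build GRCm38.p6, 250 bases before to 50 bases after a gene's start) matched 40 of the 44 genes. The other 4 were Acr, Dmrt1, Piwil2 and Spo11. Each window was searched on both strands for CACGTG, the E-box that Mga and Max bind, and for the core of the E2f6 site, TCCCGC, which reads as GCGGGA on the opposite strand. The 2 motifs do not overlap in any promoter printed below. A gene was counted where any of its windows held the motif, so the 2 motifs of a gene may lie in different windows. This was so for Nxf2, which is counted as having both, here and by level below. The E-box stood in 12 of the 40 promoters (30%), against 8.09% of 27025 genes with a window. The E2f6 core stood in 13 (32.5%), against 22.1% of all genes, and both motifs stood in 7 (17.5%), against 2.65%. Over single windows of this length, 7.15% of 32851 held CACGTG and 19.98% held TCCCGC.

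Motif shares were also set out by level. Of the 20 genes with a window that reached 1 FPKM, 35% had the E-box, 45% the E2f6 core and 25% both, against 12.3%, 41.4% and 5.56% of all 8819 matched genes at that level. Of the 20 genes under 1 FPKM, 25% had the E-box, 20% the E2f6 core and 10% both, against 5.46%, 13.1% and 1.36% of 6853 genes. The median number of CpG sites per window was 17.5 in the genes that reached 1 FPKM and 10 in those that did not, while over all genes the medians were 22 and 4. A motif match describes the letters of a window and is not a site of binding, and the shares were not tested.

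The 5 promoters with both motifs among the genes that reached 1 FPKM are printed below, with that of Rhox5, the gene at the highest level, and that of the protamine gene Prm1, which has 1 CpG site in its window, for contrast. Each runs 5′ to 3′ on the gene's strand from 250 bases before the start to 20 bases after it, in lower case, with the E-box and the E2f6 core (either strand) in capitals. Ddx4 lies at chr13:112652291-112652560 (minus strand), Mael at chr1:166238725-166238994 (minus), Sycp3 at chr10:88459337-88459606 (plus) and Hormad1 at chr3:95559427-95559696 (plus). Sycp1 lies at chr3:102936081-102936350 (minus), Rhox5 at chrX:37754358-37754627 (plus) and Prm1 at chr16:10796804-10797073 (minus).
Ddx4: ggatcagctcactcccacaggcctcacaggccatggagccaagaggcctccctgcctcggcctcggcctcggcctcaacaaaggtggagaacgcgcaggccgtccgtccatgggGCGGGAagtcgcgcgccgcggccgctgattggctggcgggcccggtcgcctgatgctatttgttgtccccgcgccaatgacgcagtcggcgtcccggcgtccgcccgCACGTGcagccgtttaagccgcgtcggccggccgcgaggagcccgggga
Mael: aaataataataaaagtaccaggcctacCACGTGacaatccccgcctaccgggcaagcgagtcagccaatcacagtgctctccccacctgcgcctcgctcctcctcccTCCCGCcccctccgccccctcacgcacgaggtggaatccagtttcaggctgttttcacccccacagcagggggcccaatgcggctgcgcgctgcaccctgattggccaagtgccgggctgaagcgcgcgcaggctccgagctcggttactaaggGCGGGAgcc
Sycp3: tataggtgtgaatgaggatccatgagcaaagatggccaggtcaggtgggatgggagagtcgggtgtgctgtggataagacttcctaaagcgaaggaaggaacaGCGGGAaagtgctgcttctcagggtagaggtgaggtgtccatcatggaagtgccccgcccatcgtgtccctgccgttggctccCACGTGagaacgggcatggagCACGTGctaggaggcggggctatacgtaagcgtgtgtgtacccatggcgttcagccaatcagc
Hormad1: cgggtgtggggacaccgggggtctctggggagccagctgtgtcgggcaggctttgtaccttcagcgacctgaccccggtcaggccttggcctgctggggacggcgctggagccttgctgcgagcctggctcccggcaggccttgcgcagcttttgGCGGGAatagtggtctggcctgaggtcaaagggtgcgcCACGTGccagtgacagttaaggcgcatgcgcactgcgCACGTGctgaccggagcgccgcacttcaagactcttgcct
Sycp1: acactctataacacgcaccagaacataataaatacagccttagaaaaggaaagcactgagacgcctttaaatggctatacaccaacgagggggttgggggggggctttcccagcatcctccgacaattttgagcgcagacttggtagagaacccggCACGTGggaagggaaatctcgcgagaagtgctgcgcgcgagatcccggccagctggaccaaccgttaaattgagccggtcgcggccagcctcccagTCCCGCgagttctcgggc
Rhox5: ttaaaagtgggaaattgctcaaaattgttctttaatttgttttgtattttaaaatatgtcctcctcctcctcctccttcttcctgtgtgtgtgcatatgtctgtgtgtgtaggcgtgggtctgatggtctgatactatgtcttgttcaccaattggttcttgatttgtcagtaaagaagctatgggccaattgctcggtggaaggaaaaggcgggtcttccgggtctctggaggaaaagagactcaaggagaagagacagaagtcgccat
Prm1: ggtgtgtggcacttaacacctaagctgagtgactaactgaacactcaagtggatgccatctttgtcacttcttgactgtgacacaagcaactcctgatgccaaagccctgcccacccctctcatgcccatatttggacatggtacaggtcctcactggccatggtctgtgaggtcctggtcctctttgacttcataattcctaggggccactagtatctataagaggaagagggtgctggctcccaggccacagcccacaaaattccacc

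In Sycp1 the E-box begins 94 bases before the start and the E2f6 core lies just after the start. Ddx4 has its E-box 29 bases and its E2f6 core 136 bases before the start, in a window with 38 CpG sites, the most of these genes. Sycp3 and Hormad1 carry 2 E-boxes each, 64 and 43 bases before the start in Sycp3 and 57 and 20 bases before it in Hormad1. The windows of Rhox5 and Prm1 hold neither motif.

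**Figure D2:**
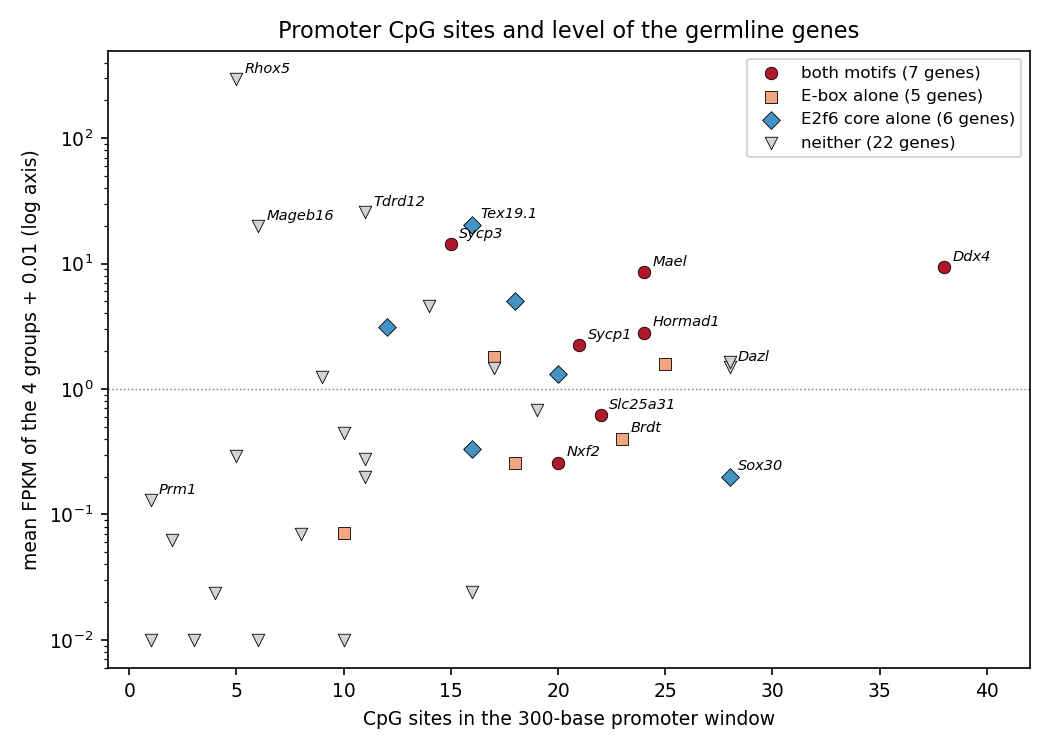
CpG sites in the 300-base promoter window (largest of a gene's windows) against the mean FPKM of the 4 groups plus 0.01 (log axis) for the 40 germline genes with a window, marked by the motifs found. Ddx4 has 38 CpG sites, while Rhox5, at the highest level, has 5 and Prm1 has 1.

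Among the RNA-binding and related genes, Tex19.1, which is known to restrain retrotransposons in germ cells and ES cells, stood at 20.04 FPKM in the transgenic line with doxycycline, 20.9 FPKM without it, and 20.5 and 20.2 FPKM in clone 7 with and without it. Its 4 values lay within 1.04-fold of each other, the smallest spread over the groups of the 22 genes. Ddx4, the germ cell RNA helicase known as Vasa, was at 10.8, 10.04, 8.42 and 8.11 FPKM in the same order. Both values of the transgenic line lay above both of the other line. The line differences on the log2 scale were 0.31 (SE 0.45) without and 0.36 (SE 0.39) with doxycycline, within 1 SE of 0 by the statistic. The SEs implied by the deposited p were smaller, at 0.24 and 0.26. Neither difference was called (p = 0.19295 and 0.15855 in the authors' deposited table). Mael, a factor of transposon silencing, was at 8.30, 9.28, 8.11 and 8.66 FPKM, with the lines overlapping.

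Dazl, an RNA-binding translation regulator needed for germ cell formation, was at 1.54, 1.54, 1.40 and 1.43 FPKM. Tex101, which encodes a surface glycoprotein of germ cells, was at 0.730, 1.05, 0.420 and 0.480 FPKM, higher in both groups of the transgenic line. Without doxycycline that was 2.19-fold (log2 1.13, SE 0.76), which was not called in the authors' deposited table (p = 0.1455, q = 0.9996). Tex14, a component of the bridges that join dividing germ cells, was at 1.35, 0.750, 1.81 and 1.32 FPKM. In both lines the group with doxycycline was the higher of the pair, and the transgenic group without doxycycline was the lowest of the 4.

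Of the piRNA pathway, Tdrd12, a Tudor-domain factor of piRNA production, was at 21.9, 20.8, 31.0 and 29.2 FPKM. Both groups of the non-transgenic line lay above both of the transgenic line. Piwil2, the Argonaute family protein Mili, was at 2.09, 1.77, 2.06 and 2.23 FPKM, and the Tudor scaffold Tdrd1 at 1.84, 1.71, 1.37 and 1.38 FPKM. The remaining Argonautes of this pathway, Piwil1 and Piwil4, and the helicase Tdrd9 stayed at 0.429 FPKM or less in every group. Piwil4 was at 0.154, 0.0748, 0.429 and 0.414 FPKM, lower in both transgenic groups and too low for the authors' test.

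Of the genes of the meiotic axis and synapsis, Sycp3, which encodes an axial element protein of the synaptonemal complex, was at 12.3, 12.8, 17.0 and 15.1 FPKM. This value is uncertain, because Sycp3 overlaps Chpt1 on the opposite strand, which was at 3.78 to 4.17 FPKM, and 46.9% of the 75-base stretches of its transcript also occur in Chpt1. Syce1, a central element protein, was at 3.72, 4.13, 4.47 and 5.97 FPKM, with no overlap between the lines. Hormad1, which marks unsynapsed axes, was at 2.33, 1.89, 3.65 and 3.34 FPKM, and shares 15.2% of its stretches with the gene entry Gm15529. Dmc1, the meiotic strand exchange protein, was at 4.23, 3.93, 6.13 and 5.92 FPKM.

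All of these 4 genes stood higher in both groups of the non-transgenic line, and none of the 4 was called. Sycp1, which encodes the transverse filament protein of the synaptonemal complex, had the opposite order, at 3.67, 3.73, 0.764 and 0.727 FPKM. Of all entries at 1 FPKM or more, 32.1% had the order of the 4 genes and 28.4% that of Sycp1. Sycp2, the partner of Sycp3 in the axis, was at 0.429, 0.559, 0.431 and 0.322 FPKM. Spo11, which makes the breaks that start recombination, did not exceed 0.0703 FPKM and was listed at 0 in 1 group.

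Among transcription and chromatin regulators, Dmrt1, a factor of testis fate and germ cell mitosis, was at 10.1, 9.22, 9.72 and 9.08 FPKM, a spread of 1.11-fold. Dmrtb1, which controls the entry of spermatogonia into meiosis, was at 1.47, 2.14, 1.07 and 1.84 FPKM, the lower value of each line being that with doxycycline. Taf7l, a germ cell variant of a TFIID subunit, was at 1.85, 1.96, 1.73 and 1.57 FPKM. Sohlh2, a helix-loop-helix factor of spermatogonia and oocytes, was at 1.34, 1.44, 1.43 and 1.62 FPKM. Brdt, a bromodomain reader of acetylated histones in spermatids, was at 0.576, 0.416, 0.318 and 0.259 FPKM, and the spermatid factor Sox30 at 0.311, 0.314, 0.104 and 0.0303 FPKM. For both of the last, the transgenic groups were the higher, at levels too low for a test.

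Of the X-linked genes, Rhox5, a homeobox gene of the reproductive tract also called Pem, was at 315, 304, 290 and 280 FPKM, rank 329 of the 23284 entries by mean level. Mageb16, a member of the MAGE family of ubiquitin ligase partners, was at 17.3, 16.4, 24.0 and 21.8 FPKM. It shares 57.2% of its stretches with its pseudogene Mageb16-ps2, so its level is uncertain. The other 8 X-linked genes stayed at 0.410 FPKM or less. Among them Mageb4 was at 0.0523, 0.0449, 0.251 and 0.402 FPKM, and it shares 48.1% of its stretches with Mageb10-ps. Xlr3a, of the lymphocyte-regulated X-linked family, was at 0.116, 0.238, 0.371 and 0.410 FPKM. Both were lower in the transgenic line and had no test in the 4 comparisons. Xlr3a, Xlr4a and Xlr5a share 58.6%, 55.5% and 80.4% of their stretches with other genes, which the counting may split, and Magea4, Nxf2, Magea8 and Mageb18 complete the group.

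Of the spermatogenic genes, Ldhc, the testis lactate dehydrogenase subunit, was at 1.30, 1.17, 1.28 and 1.21 FPKM. The alpha tubulin gene Tuba3a was at 3.13, 2.93, 2.80 and 3.60 FPKM, and it shares 19.9% of its stretches with Tuba3b, which was at 0.173 to 0.427 FPKM. Slc25a31, the germ cell ADP/ATP carrier, was at 0.650, 0.640, 0.539 and 0.606 FPKM, the highest level among the 22 genes that did not reach 1 FPKM. Genes of late spermatogenesis were lowest: Acr, the acrosin of the acrosome, did not exceed 0.0886 FPKM and the testis phosphoglycerate kinase Pgk2 did not exceed 0.0357 FPKM. Prm1 was listed at 0 in both transgenic groups and stood at 0.313 and 0.164 FPKM in the non-transgenic groups with and without doxycycline, and its partner Prm2 and the transition protein Tnp1 were listed at 0.

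The first comparison asked what doxycycline changed in the transgenic line. None of the 24 tested germline genes was called at a q under 0.05 in the authors' deposited table, where 0.108% of 13003 tested genes were called. At an unadjusted p under 0.05 stood 1 of the 24, Tex14, against 1.08% of all tested genes. With doxycycline Tex14 was 1.80-fold as high (log2 0.85, SE 0.55, p = 0.02525 and q = 0.681 in the authors' deposited table). In the non-transgenic line Tex14 was 1.37-fold as high with doxycycline (log2 0.46, SE 0.58, p = 0.24585 in the authors' deposited table), and the responses of the lines differed by 0.39 (SE 0.80), an interval of -1.17 to 1.96.

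Precision set a limit on what could be seen. Rhox5 had the narrowest interval, with a response of 0.05 on the log2 scale (SE 0.17, 95% interval -0.28 to 0.38). For Sycp1 the response was -0.02 (SE 0.50), with an interval of -0.996 to 0.95 from the statistic and of -0.56 to 0.51 from the deposited p. The median SE of the tested germline genes was 0.47, against 0.35 over all tested genes. The median difference on the log2(FPKM + 1) scale was 0.06 over the 22 genes at 1 FPKM or more, with 13 above 0 and 9 below it, against 0.00 over 12566 such genes.

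**Figure D3:**
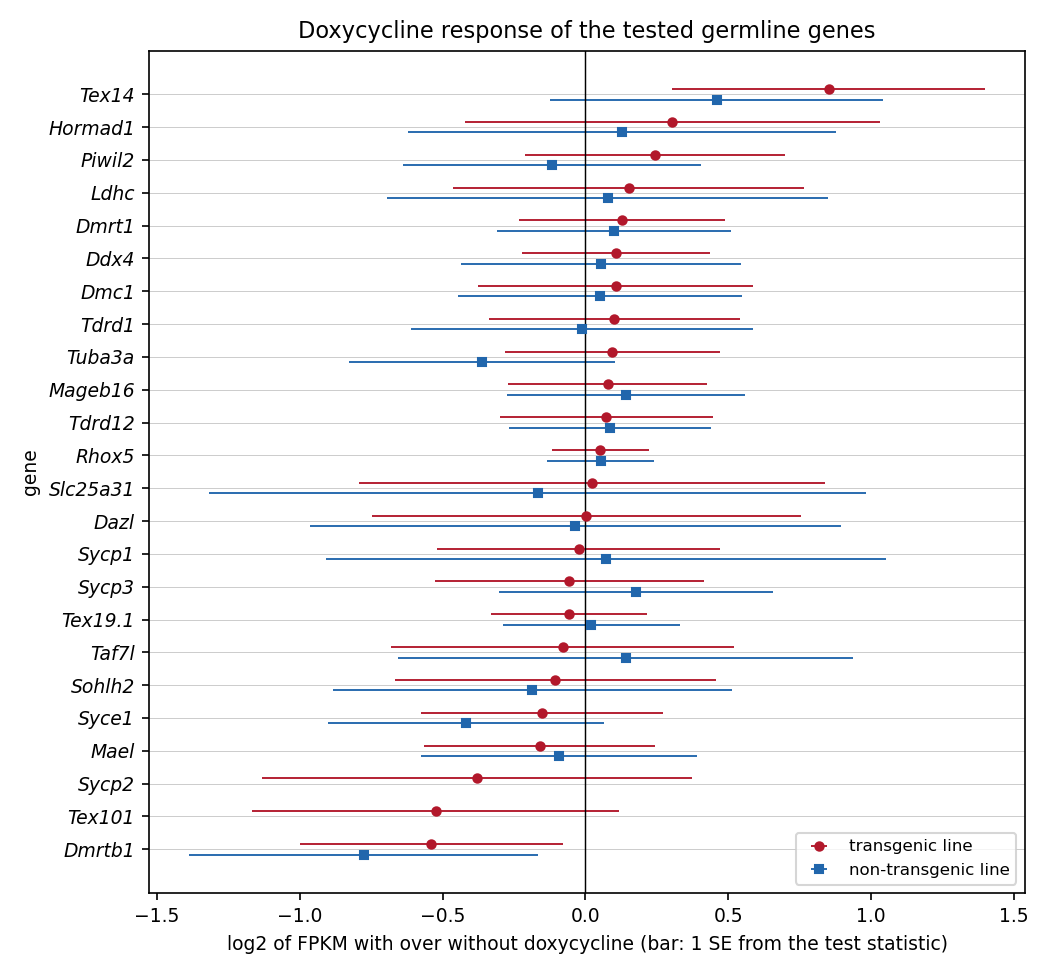
Log2 ratio of FPKM with over without doxycycline for the 24 germline genes tested in the transgenic line (red) and, where tested, in the non-transgenic line (blue), with bars of 1 SE taken from the deposited test statistic. Tex14 is highest in the transgenic line at 0.85, Dmrtb1 is lowest at -0.54, and no gene was called in either line.

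In the non-transgenic line 22 of the germline genes were tested for doxycycline, and 0 were called at a q under 0.05 in the authors' deposited table, against 0% of 12908 tested genes. At an unadjusted p under 0.05 stood 0, against 0.108%. The smallest p was 0.18825, at Dmrtb1, whose log2 difference was -0.78 (SE 0.61) here and -0.54 (SE 0.46, p = 0.21435) in the transgenic line, with p from the authors' deposited table. The median on the log2(FPKM + 1) scale was 0.04, against 0.02 over all genes at 1 FPKM or more. Signs of the responses were the same in both lines for 14 of the 22 genes at 1 FPKM or more, 9 of them higher with doxycycline and 5 lower, and opposite for 8. Over all 12566 entries at that level, 3864 were higher with doxycycline in both lines, 2857 lower in both and 5768 opposite.

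Whether a response differed between the lines was then tested gene by gene on the deposited statistics, with a two-sided normal test adjusted over 12638 genes. Of the 22 germline genes in that test 0 were called, against 0.142% of all genes, and 0 had an unadjusted p under 0.05. Among the 22 the smallest p of this test was 0.446, at Tuba3a, whose response was 0.09 in clone 6 (transgenic) and -0.36 in clone 7. The interval of the difference ran from -0.50 to 0.49 for Rhox5 and from -2.25 to 2.06 for Sycp1.

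The lines were next compared without doxycycline. Sycp1 was 5.13-fold higher in the transgenic line (log2 2.36, SE 0.77, 95% interval 0.85 to 3.87), with a p of 5e-05 and a q of 0.00812 in the authors' deposited table, the smallest values that occur in it. It was the 1 called gene of the 24 tested, against 1.37% of 13047 tested genes. The genes were chosen with earlier results of these data known, so this call is no separate evidence. At an unadjusted p under 0.05 stood 5 of the 24, against 6.59% of all tested genes. Besides Sycp1, which was higher, these were Tdrd12, Hormad1, Dmc1 and Tex14, each lower in the transgenic line and none of them called.

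The sizes of these 4 differences were moderate. Tdrd12 had a log2 difference of -0.49 (SE 0.35, p = 0.0321, q = 0.776), Hormad1 of -0.82 (SE 0.75, p = 0.0382, q = 0.844), Dmc1 of -0.59 (SE 0.49, p = 0.0448, q = 0.915) and Tex14 of -0.81 (SE 0.60, p = 0.04305, q = 0.899), with p and q from the authors' deposited table. The 95% interval from the test statistic included 0 for each of them, while the interval implied by the deposited p did not, for example -2.30 to 0.66 against -1.60 to -0.04 for Hormad1. Mageb16 had a log2 difference of -0.41 (SE 0.40, p = 0.07745 in the authors' deposited table). Over the 22 genes at 1 FPKM or more the median on the log2(FPKM + 1) scale was -0.00, the same as over all such genes, with 11 genes above 0 and 11 below.

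With doxycycline in both lines, which uses the other 4 libraries, Sycp1 was 4.80-fold higher in the transgenic line (log2 2.26, SE 0.79), again with a p of 5e-05 and a q of 0.00812 in the authors' deposited table. It was the 1 called gene of 23 tested, against 1.52% of 13064 tested genes. At an unadjusted p under 0.05 stood 2 of the 23, Sycp1 and Tdrd12, against 7.9% of all tested genes. Tdrd12 had a log2 difference of -0.50 (SE 0.38, p = 0.04255, q = 0.895 in the authors' deposited table). Mageb16 followed at -0.47 (SE 0.36, p = 0.05085), Dmc1 at -0.54 (SE 0.49, p = 0.09165), Hormad1 at -0.65 (SE 0.72, p = 0.1041) and Tex14 at -0.42 (SE 0.53, p = 0.25835) in the authors' deposited table. The median of the 22 genes was 0.02, against -0.02 over all genes at 1 FPKM or more.

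**Figure D4:**
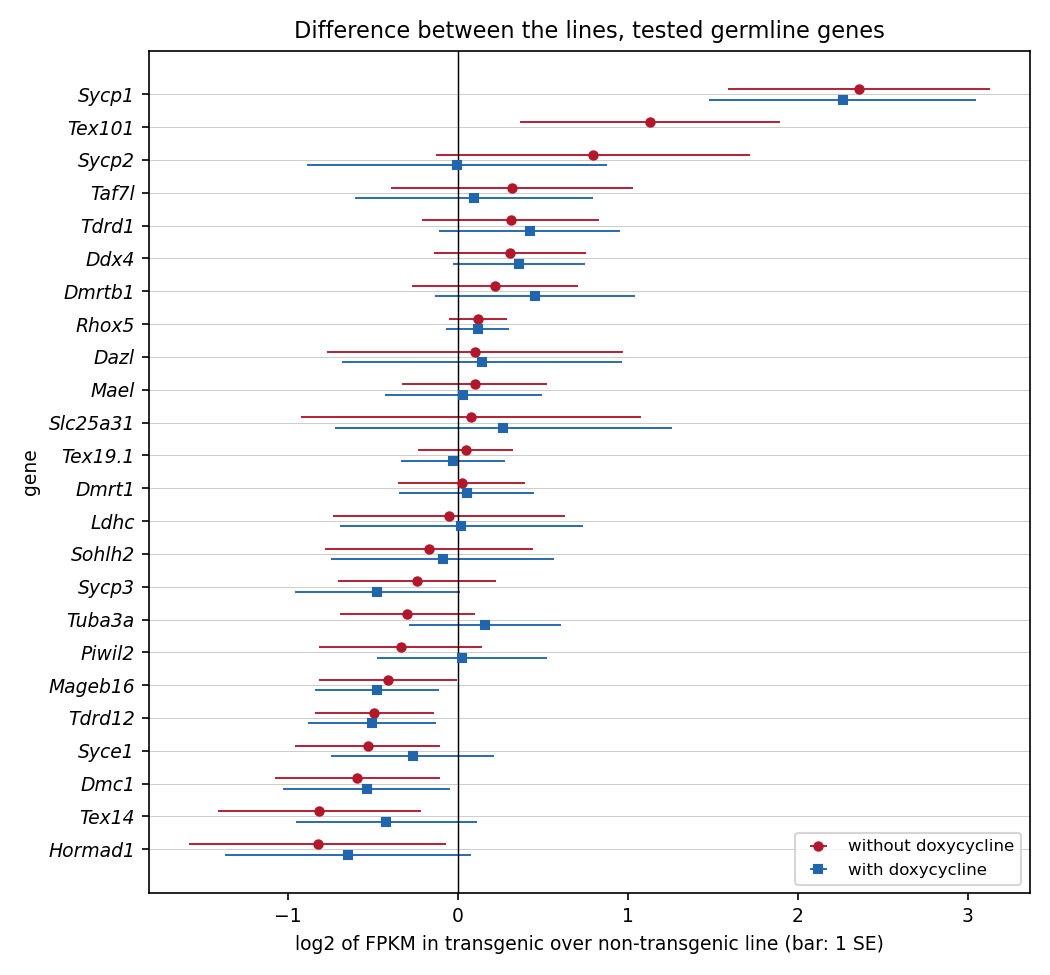
Log2 ratio of FPKM in the transgenic over the non-transgenic line, without (red) and with doxycycline (blue), for the tested germline genes, with bars of 1 SE from the deposited test statistic. Sycp1 stands apart at 2.36 and 2.26, and Hormad1 is lowest without doxycycline at -0.82.

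The 2 further comparisons in the table set a group with doxycycline in 1 line against the group without it in the other line, and they share their groups with the 4 comparisons above. Sycp1 was called in both, 5.05-fold and 4.88-fold higher in the transgenic line at a q of 0.00812 in the authors' deposited table, and no other germline gene was called.

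By the order of the 4 group values, both groups of the non-transgenic line lay above both of the transgenic line for 6 of the 22 genes at 1 FPKM or more (27.3%, against 32.1% of all such genes). These were Tdrd12, Mageb16, Sycp3, Dmc1, Syce1 and Hormad1, and none of them was called. The order was reversed for 7 genes (31.8%, against 28.4%), namely Rhox5, Ddx4, Sycp1, Taf7l, Tdrd1, Dazl and Tex101, and the lines overlapped for 9. The highest group was less than 1.5 times the lowest for 15 of the 22 genes (68.2%, against 82.3% of all such genes), and the median of that ratio was 1.34, against 1.19.

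Sycp1 lies on chromosome 3 at chr3:102818499-102936100 (mm10, minus strand). Of the 75-base stretches of the Sycp1 transcript 1.43% also occur in its pseudogene Sycp1-ps1, which did not exceed 0.0899 FPKM in any group.

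Other germline and meiosis genes were read from a list of 59, of which 53 were in the table and 31 reached 1 FPKM. In the transgenic line 2 of the 32 with a test were called higher with doxycycline and 0 lower. Over all tested genes 0.108% were called. The 2 were Prss50 (12.2 FPKM with and 3.83 FPKM without), which encodes a testis serine protease, and Rec8 (14.1 and 5.74 FPKM), the meiotic cohesin subunit. The list was written with these 2 calls known, so they are no separate evidence. Both had a p of 5e-05 and a q of 0.00812 in the authors' deposited table. When the deposited p-values were adjusted here within this comparison alone, both had an adjusted p of 0.0929 and were not called. At an unadjusted p under 0.05 stood 4 of the 32, against 1.08% of all tested genes. These also included Ctcfl and Stra8, a gene of meiotic entry at 2.71 and 0.221 FPKM with and without doxycycline (log2 3.62, p = 0.00095, q = 0.0809 in the authors' deposited table). In the non-transgenic line 0 of 32 were called in the authors' deposited table, and 0 had an unadjusted p under 0.05. The highest level was that of Syce2, a central element protein, at 76.7, 76.0, 90.6 and 101 FPKM.

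Between the lines without doxycycline 2 of 32 tested genes of this list were called higher in the transgenic line and 1 lower, and with doxycycline 3 of 34 were called higher and 1 lower. The list was chosen with earlier results of these data known, so these calls are no separate evidence either. The shares called over all tested genes were 1.37% and 1.52%. By the authors' deposited table, 8 of the 32 and 9 of the 34 had an unadjusted p under 0.05. The matching shares over all tested genes were 6.59% and 7.9%. Cyct, the testis cytochrome c, was at 21.5, 20.1, 2.31 and 2.25 FPKM in the group order above. Usp26, an X-linked ubiquitin protease of testis, was at 3.41, 3.56, 0.942 and 0.883 FPKM, and like Cyct it was called in both comparisons. Tex15, which acts in meiotic repair and transposon silencing, was lower in both, at 1.26, 1.24, 3.94 and 3.44 FPKM. Prss50 was higher in the transgenic line with doxycycline only (q = 0.0429 in the authors' deposited table).

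Factors of germline gene silencing and DNA methylation were read from a list of 26, of which 25 were in the table, reached 1 FPKM and were tested. For doxycycline 0 were called in either line in the authors' deposited table. In the non-transgenic line 0 had an unadjusted p under 0.05, against 0.108% of all tested genes. In the transgenic line 1 gene had, against 1.08%. This was the DNA methyltransferase gene Dnmt3b, at 331 and 424 FPKM with and without doxycycline (p = 0.0259, q = 0.692 in the authors' deposited table). Dnmt3l, the cofactor of the de novo methyltransferases, was called lower in both line comparisons, at 130, 120, 230 and 206 FPKM. With doxycycline also Tet1 (14.7 against 25.1 FPKM) and Tet2 (2.36 against 4.31 FPKM) were called lower, which made 3 of 25 lower and 0 higher. Over all tested genes 1.37% were called between the lines without doxycycline and 1.52% with it. Without doxycycline Tet1 (14.6 against 20.7 FPKM) and Tet2 (2.07 against 3.38 FPKM) were lower as well but were not called. Their p-values there were 0.00515 and 0.00365 and their q-values 0.263 and 0.207 in the authors' deposited table. Tet1 and Tet2 are no repressors but dioxygenases that oxidise 5-methylcytosine, the first step of its removal. The corepressor Trim28 was at 611 to 693 FPKM and not called. Whether these levels bear on the germline genes was not tested.

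Relatives of the X-linked and tubulin genes were read from a list of 38, of which 35 were in the table, 8 reached 1 FPKM and 7 were tested. In the 4 comparisons 0 were called in the authors' deposited table. An unadjusted p under 0.05 was found for 0 in the doxycycline comparisons and 1 in each line comparison. Over all tested genes the shares in the line comparisons were 6.59% without and 7.9% with doxycycline. The highest levels were those of the alpha tubulin genes Tuba1b (1102 to 1194 FPKM), Tuba1a (648 to 709 FPKM) and Tuba1c (532 to 545 FPKM). The counting may split reads between these related genes, whose shared stretches were not searched. Rhox6, a neighbour of Rhox5 in the homeobox cluster, was at 12.7, 9.70, 5.74 and 5.20 FPKM. Rhox9 was at 8.11, 7.36, 4.08 and 2.56 FPKM, with a p of 0.00765 and a q of 0.342 between the lines without doxycycline in the authors' deposited table. Both stood higher in the transgenic line, where Rhox5 was at 315 and 304 FPKM against 290 and 280 FPKM.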

How the data were processed

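RNA sequencing of 8 libraries, 75-base single-end reads, gave the 1 table used here. TopHat2 2.0.8, Cufflinks 2.1.1 and build mm10 are named per the submitters' processing notes. Annotation, strand setting and normalization were not given in the sources used here. For each group, the authors deposited FPKM per gene, a test statistic (a score with no fixed range) and p-values and q-values for 6 group comparisons. The deposited q-values differed by at most 5.21e-07 from Benjamini-Hochberg adjustment over all 78127 tests. The deposited fold change column, damaged in a spreadsheet, was not used: log2 ratios were computed from FPKM with no pseudocount, and medians on log2(FPKM + 1). Deposited p-values, from a Cuffdiff-type test across all genes, come from 2 libraries per group, which the labels call biological replicates. Both libraries of a group are of 1 clone, so their spread does not cover that between clones. What the error model of the test holds was not given.

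Genes were called at a deposited q under 0.05. The SE is the log2 ratio over the test statistic, and the difference between responses was tested by a normal test across all genes; its code was tested on simulated data, which does not check the SE. Named with values were the genes at 1 FPKM or more in any group, called, or at p under 0.05; from other lists, called genes, otherwise the 3 of highest mean. The 44 genes and all lists were chosen with earlier results of these data known. Syce2, Stra8, Dnmt3b, Trim28, Rhox6, Rhox9 and single genes under 1 FPKM were named, and the SE implied by p and the sum without Col1a1 added, after the values were seen. Promoters are from RefSeq, transcripts from GENCODE M21, and Python 3.11.15, pandas 2.3.3 and scipy 1.17.1 were used.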

Additional observations from a re-analysis of the deposited data

How the results depend on the processing

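Limits first: 1 deposited value per group was used, so no library could be left out and the depth is unknown. No paired analysis was possible because the group values carry no experiment. The calls of the germline genes were the same in number when the deposited p-values were adjusted within each comparison alone or over tests reaching 1 FPKM. Over all genes, adjustment within the comparison alone left 0 genes called for doxycycline in the transgenic line in place of 14, where 140 have an unadjusted p under 0.05 (authors' deposited table). In the test between responses, standard errors read from the deposited p gave 0 called genes instead of 18, and 26 with an unadjusted p under 0.05. At 5 FPKM or more 10 germline genes remained of 22, and their median between the lines with doxycycline was -0.12 in place of 0.02. Medians counted as moved past 0.1 on the log2 scale; with a pseudocount of 0.1, no minimum or rescaling to the median of all genes none of the 4 medians did. Rescaling turned the sign of 1 of 86 single-gene values, Tex19.1 for doxycycline in the non-transgenic line, from 0.02 to -0.0045.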
